A study of Homo sapiens with 7 samples.

Results

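Stretches of the genome enriched for 5-hydroxymethylcytosine (5hmC) in every TDP-43 knockdown library of SH-SY5Y cells, and called in none of the control libraries, are described here. They were found by merging the peaks of 6 lists on chromosomes 1 to 22 and X, joining peaks that overlapped or touched. A merged region was kept when a peak of all 3 knockdown lists overlapped it and no peak of the 3 control lists did. Of 200818 merged regions, 2126 met this rule (1.06%). They are called knockdown-only regions below. They were 2.37% of the 89768 regions with a peak in all 3 knockdown lists. The mirrored rule gave 3951 control-only regions (1.97% of all, and 4.34% of the 91125 regions with a peak in all 3 control lists), and 71364 regions had a peak in all 6 lists. Because the rule reads which lists hold a peak, the difference between knockdown and control at these regions is a description, and no test of it was made.

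5hmC is made when TET enzymes oxidise 5-methylcytosine, and it serves both as a step towards loss of methylation and as a lasting mark. Neurons carry much of it, mostly in the bodies of genes and at enhancers, and CpG-rich promoters of active genes carry little. TDP-43, encoded by TARDBP, is a nuclear protein that binds RNA and DNA rich in UG or TG repeats. It leaves the nucleus and aggregates in neurons in most cases of amyotrophic lateral sclerosis.

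SH-SY5Y is a human neuroblastoma line of the sympathetic, noradrenergic lineage. The 3 control libraries came from cells given a lentivirus with the non-targeting hairpin shNC, and the 3 knockdown libraries from cells given a lentivirus with the shTDP-43 hairpin from a U6 promoter. The knockdown cells were kept as a stable line under puromycin. 5hmC was tagged with an azide-bearing glucose, coupled to biotin, pulled down on streptavidin beads and sequenced (hMe-Seal), and peaks were called in each library. The labels do not say how many hairpin sequences or clones were used, or whether libraries of a group came from separate cultures, so the spread between libraries may be technical. Peak lists hold no expression values, so neither the depletion of TDP-43 nor the cell type was checked by markers. A missing peak means that no enrichment was called there, not that 5hmC was absent.

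The lists held 117949, 157157 and 126966 peaks in control 1, 2 and 3, and 142605, 119820 and 130412 in knockdown 1, 2 and 3. Control 2 stood apart, with 111.2 Mb under peaks against 80.8 and 85.0 Mb in the other control libraries and 78.2 to 98.8 Mb in the knockdown libraries. Read totals are unknown, since the files give none. The number of knockdown-only regions rests on control 2. Without it, the same rule gave 6810 knockdown-only regions. Without knockdown 1, 2 or 3 in turn it gave 3323, 4699 and 3722 regions, since fewer lists then had to hold a peak. The number of control-only regions likewise ran to 7254 and 6401 without control 1 or 3 and to 6477 and 6077 without knockdown 1 or 3. How far the size of the control 2 list sets which regions were kept was not tested.

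Most of these regions lay far from gene starts, and a few that overlapped a promoter window show what such a promoter looks like in letters. RefSeq promoter windows (GRCh38.p14, from 250 bases before a start to 50 after) were overlapped at 23 starts, 11 of them of protein-coding genes. The genes with protein-coding starts were DDC, CAMK2A, RHOH, SATB1, SVIL, RAG2, PDZRN3, ZDHHC19 and CAPG, the last with 3 windows overlapped by 1 region. The 250 reference bases before the start are given for 5 of them, chosen after their values were seen, 5′ to 3′ on the gene's strand, with each CpG dinucleotide, the usual place of 5hmC, in capitals. DDC makes dopamine from L-DOPA, CAMK2A is a calcium-dependent kinase of synapses, RHOH is a small GTPase of blood cells, SATB1 is a chromatin organiser and SVIL is an actin-binding protein.
DDC: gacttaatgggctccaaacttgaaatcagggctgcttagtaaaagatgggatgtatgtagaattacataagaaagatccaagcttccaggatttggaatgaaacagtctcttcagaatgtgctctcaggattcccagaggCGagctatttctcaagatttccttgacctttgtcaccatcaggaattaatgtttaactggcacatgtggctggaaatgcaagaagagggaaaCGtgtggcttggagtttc
CAMK2A: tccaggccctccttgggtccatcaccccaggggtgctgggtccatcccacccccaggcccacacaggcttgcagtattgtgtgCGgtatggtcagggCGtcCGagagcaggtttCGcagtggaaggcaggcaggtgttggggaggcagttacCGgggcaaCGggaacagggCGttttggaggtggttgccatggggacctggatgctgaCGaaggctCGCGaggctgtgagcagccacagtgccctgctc
RHOH: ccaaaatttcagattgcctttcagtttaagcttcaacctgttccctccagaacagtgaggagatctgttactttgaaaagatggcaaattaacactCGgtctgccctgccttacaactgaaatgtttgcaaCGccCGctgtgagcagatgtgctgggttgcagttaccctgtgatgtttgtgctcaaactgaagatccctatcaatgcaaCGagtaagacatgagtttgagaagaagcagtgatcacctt
SATB1: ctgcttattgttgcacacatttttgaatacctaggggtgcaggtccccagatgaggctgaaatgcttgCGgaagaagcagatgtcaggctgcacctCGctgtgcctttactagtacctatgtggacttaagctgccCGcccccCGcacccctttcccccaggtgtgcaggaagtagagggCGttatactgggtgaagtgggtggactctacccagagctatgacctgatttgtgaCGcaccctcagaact
SVIL: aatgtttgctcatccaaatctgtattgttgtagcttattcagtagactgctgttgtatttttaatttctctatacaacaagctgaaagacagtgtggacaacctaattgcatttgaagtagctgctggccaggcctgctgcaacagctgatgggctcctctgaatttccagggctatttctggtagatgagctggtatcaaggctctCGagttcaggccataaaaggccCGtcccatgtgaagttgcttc
These stretches lie at chr7:50565406-50565655 (minus strand) for DDC, chr5:150289774-150290023 (minus) for CAMK2A, chr4:40190830-40191079 (plus) for RHOH, chr3:18438737-18438986 (minus) for SATB1 and chr10:29634972-29635221 (minus) for SVIL. For DDC and RHOH the start is the outermost one of the gene, and for CAMK2A, SATB1 and SVIL it is an inner one. The CpG count was 2 for DDC, 10 for CAMK2A, 4 for RHOH, 6 for SATB1 and 2 for SVIL, and the region covered all 250 bases except for SVIL, where it covered 178.

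The promoter windows overlapped by knockdown-only regions were poor in CpG. CpG and letters were counted in the 250 bases before each start, whether or not the region covered them. At RAG2, which is among the windows with the motif given below, the region covered 0 of those bases. It covered 2 of them at LOC124903459 and 13 at LOC107987331. Their median was 4 CpG in 250 bases and 48.8% G+C, against 11 CpG and 58.4% over all 34961 promoter windows. At least 10 CpG stood in 13.0% of the 23 windows, 40.7% of the 113 windows under control-only regions, 36.5% of the 2632 under regions in all 6 lists, and 52.3% of all windows. The letters TGTGTG, read on both strands, stood in 9 of the 23 windows (39.1%), CAMK2A and SATB1 among those printed, in 15.0% of windows under control-only regions, 19.4% under regions in all 6 lists and 14.3% of all windows. The motif is a run of the repeat that TDP-43 is known to bind. Its presence is a match of letters only. The 23 windows share sequence at CAPG and at the facing starts of ZDHHC19 and LOC124909479, and no test was made. No knockdown-only region overlapped a miRNA hairpin of the RefSeq table, which allows a share of up to 0.141% (3 counts), and 81 of the 71364 regions in all 6 lists did (0.114%).

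The region over the DDC start was the second longest of all. It spanned chr7:50564179-50566188, 2010 bp, and its peaks had a fold enrichment, as the authors' peak caller gave it, of 4.02, 4.80 and 5.27 in knockdown 1, 2 and 3. The highest points of the peaks (summits) lay at −373, −337 and −341 bases from the start (negative is before it), within 36 bases of each other. A region found in all 6 lists lay 1032 bp away. DDC held 31 merged regions, 20 of them in all 6 lists, 2 knockdown-only and 1 control-only. Peaks covered 21.2%, 22.8% and 20.3% of the gene in control 1, 2 and 3, and 26.0%, 25.6% and 25.6% in knockdown 1, 2 and 3. Without the members the knockdown values were 25.1%, 24.1% and 24.7%, and the groups did not overlap either way. Counted with members, coverage was higher in every knockdown library in 3.05% of all 12958 protein-coding genes with a region. The like share without members is not given. DDC was named for its members, so nothing is read from this. In the other 4 genes whose promoters are printed, the groups overlapped. CAMK2A had 10.4%, 8.63% and 7.32% in the controls and 10.7%, 9.66% and 9.26% after knockdown, RHOH 11.7%, 11.7% and 10.7% against 11.9%, 8.21% and 11.2%, SATB1 9.996%, 21.96% and 12.8% against 21.9%, 15.1% and 15.8%, and SVIL 8.10%, 9.21% and 8.56% against 8.57%, 6.77% and 8.11%. At CAMK2A (chr5:150289581-150290336, fold 4.44, 5.61 and 5.56) and SVIL (chr10:29634647-29635149, fold 4.87, 4.06 and 4.26) the 3 summits also lay before the start, at −34, −77 and −53 bases and at −31, −16 and −8 bases. At RHOH (chr4:40190786-40191289) they lay at −13, −132 and −139 bases. At SATB1 they fell on both sides of the start, at −47, 54 and −165 bases, and at PDZRN3 (57, 107 and 66) and RAG2 (394, 100 and 323) after it.

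Knockdown-only regions were narrow and of modest enrichment. Their median width was 518 bp, close to the 509 bp of control-only regions. It was 969 bp for regions in all 6 lists, which join peaks of more lists. Together the knockdown-only regions covered 1.26 Mb. The median fold of their peaks was 4.59, 4.69 and 4.63 in knockdown 1, 2 and 3, where peaks of regions in all 6 lists had medians of 7.14, 6.83 and 6.91. Within each knockdown list the members' peaks had median fold percentiles of 31.8, 30.3 and 33.8, so most were in the lower part of the list. In all, 184 of the 2126 regions were above the list's median fold in all 3 knockdown lists. Control-only regions had medians of 4.23, 3.75 and 3.92 in the 3 control lists, at percentiles of 29.5, 22.5 and 24.8. The values of different lists are not on one scale.

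**Figure D1:**
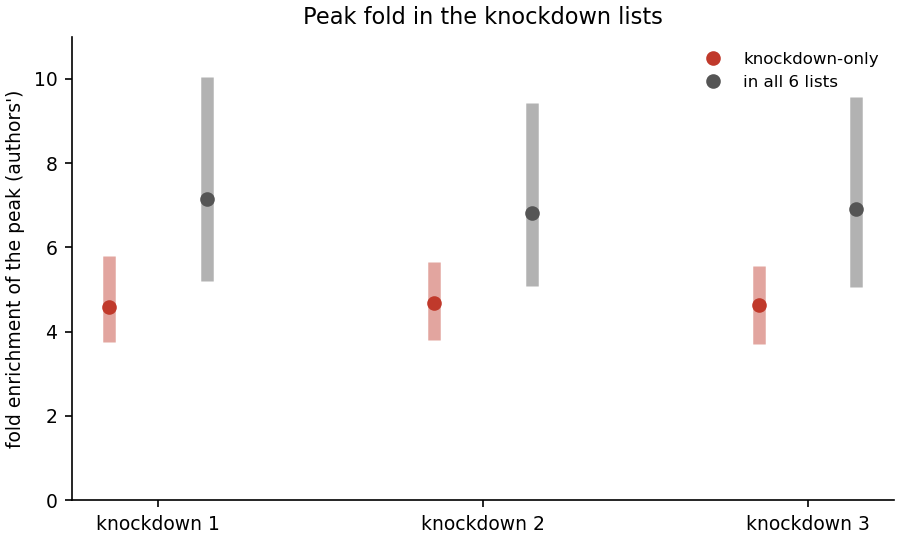
Fold enrichment of peaks in each knockdown list, as the authors' peak caller gave it (y axis), at knockdown-only regions (red) and at regions found in all 6 lists (grey); dots are medians over regions and bars span the first to the third quartile. The knockdown-only medians lie between 4.59 and 4.69 and those of regions in all 6 lists between 6.83 and 7.14.

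The 3 knockdown libraries placed their peaks at nearly the same point in these regions. The summits of the 3 lists spanned a median of 66 bp (quartiles 33 and 127 bp), and 67.2% of regions had all summits within 100 bp. The span was 60 bp in the knockdown lists at regions in all 6 lists, and 54 bp in the control lists at control-only regions. A median of 63.1% of a region's bases lay under peaks of all 3 knockdown lists. In 12 regions no base did, so these were joined only through overlapping neighbours.

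The threshold of the rule divided regions of close values. The weakest members had a −log10 q of 1.34 in their weakest list, at a region in AIMP2 and EIF2AK1 and at one in NFATC3, and of 1.39 at one in the lncRNA gene LOC107984867. The smallest −log10 q of a region over the 3 lists was under 2 in 77 regions and at least 10 in 195. Just outside the rule stood 5802 regions with a peak in all 3 knockdown lists and in 1 control list. That control list was control 2 for 4614 of them (79.5%), control 1 for 676 and control 3 for 512. The control 2 peaks there had a median −log10 q of 11.4 and a median fold of 4.94, against 17.1 and 5.28 over the whole control 2 list, and a median fold percentile of 44.8 within it. On the other side, 5252 regions had no control peak and a peak in 2 knockdown lists, with knockdown 2 the missing one in 2552 of them, knockdown 3 in 1552 and knockdown 1 in 1148.

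The strongest member lay in MAP6, which encodes a microtubule-stabilising protein of neurons, at chr11:75641787-75642392. Its fold was 8.97, 10.5 and 11.8 in knockdown 1, 2 and 3, the highest smallest fold of all members. MAP6 held 2 knockdown-only regions among 14, and peaks covered 9.68%, 9.83% and 9.64% of it in the control libraries and 13.4%, 13.7% and 13.3% in the knockdown libraries. Without the members the knockdown values were 12.4%, 12.7% and 12.1%, and the groups did not overlap either way. Counted with members, coverage was higher in every knockdown library in 3.05% of all 12958 protein-coding genes with a region. The like share without members is not given. MAP6 was named for its member, so nothing is read from this. Next in fold came regions in EFR3A (8.87, 9.42 and 9.56), the lncRNA gene LINC02008 (8.87, 9.05 and 12.3) and COP1, which encodes a ubiquitin ligase (8.87, 10.2 and 8.64). The rest of the 10 strongest lay in GPRIN3, CNTN1, PDSS2 and INVS and near PAK5 and CNTN4, with smallest folds from 7.92 to 8.29.

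The longest member lay in DAPP1, an adaptor protein of B cell signalling, at chr4:99847343-99849784, 2442 bp. Its peaks had a fold of 7.66, 5.43 and 6.10 in knockdown 1, 2 and 3. Their summits spanned 2039 bp, so the length joins peaks at different places. DAPP1 held 10 merged regions and none in all 6 lists, and the nearest such region was 55981 bp away. Peaks covered 1.95%, 5.47% and 2.42% of DAPP1 in control 1, 2 and 3 and 8.21%, 4.66% and 6.93% in knockdown 1, 2 and 3, so control 2 overlapped the knockdown group. Without the member the knockdown values were 6.13%, 4.08% and 3.14%, so knockdown 2 covered the least of the member. After DAPP1 and DDC came regions of 1987 bp in BMPR1B, 1945 bp in TOX, 1857 bp near FAM76B, 1756 bp in CEP57, 1752 bp in CHGA, 1721 bp in DOK6 and 1702 bp near LOC124900855. The regions near FAM76B and in CEP57 lay on chromosome 11 at 95575516 and 95799237, so 2 of the 10 longest came from one neighbourhood.

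By gene, the knockdown-only regions were spread thinly. Of 12958 protein-coding genes with any merged region, 928 held one (7.16%), of which 730 held 1, 134 held 2 and 64 held 3 or more. These genes were long, with a median of 166096 bp against 40871 bp for all genes with a region. Of the 928, 848 (91.4%) also held a region found in all 6 lists, 264 (28.4%) also held a control-only region, and 27 had no peak in any control list. Over all 12958 genes, 1748 held a control-only region, and the like counts for the other classes are not given. The 928 genes are also the longer ones, so nothing is read from these counts. Protein-coding genes held 57.1% of knockdown-only regions, 55.9% of control-only regions and 60.4% of regions in all 6 lists. A further 11.3% of knockdown-only regions lay in lncRNA genes and 31.6% lay in neither kind of gene. Of 9386 lncRNA genes with a region, 322 held a knockdown-only one. The highest counts were 3 each in LINC00578, LOC105373592, LOC105370777 and DIRC3, and 2 in PIR-FIGF.

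BMPR1B held the most knockdown-only regions. It encodes a type I receptor for bone morphogenetic proteins (BMPs), ligands that help specify sympathetic neurons. Of its 98 merged regions, 9 were knockdown-only, 27 were in all 6 lists and none was control-only. The 9 regions were 439 to 1987 bp wide, and their peak folds ran from 3.70 to 8.28. Peaks covered 5.63%, 12.7% and 7.85% of the gene in control 1, 2 and 3, and 17.3%, 12.5% and 14.3% in knockdown 1, 2 and 3. The peaks numbered 37, 64 and 48 in the control libraries and 82, 72 and 80 in the knockdown libraries. In number of peaks every knockdown library was above every control library, and in coverage control 2 was above knockdown 2. Peaks were more numerous in every knockdown library in 1.57% of all 12958 protein-coding genes with a region. It was 3.12% of the 1507 with at least 20. BMPR1B was chosen for its knockdown-only peaks, so nothing is read from this. Without control 2, 15 regions of BMPR1B met the rule, and 5 did where each knockdown library had to cover at least 50% of the region.

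KCNH1, which encodes a potassium channel of neurons, came next with 8 of 83 regions, a count shared by LRMDA. KCNMA1, another potassium channel, had 7 of 148, as many as RYR2. In KCNH1, peaks covered 5.67%, 7.75% and 6.51% of the gene in control 1, 2 and 3 and 13.0%, 10.2% and 11.8% in knockdown 1, 2 and 3. With the 8 regions taken out, the knockdown values were 11.8%, 9.25% and 10.8%, still above every control library. The remaining peaks come from the same lists that chose KCNH1, and the like share over all genes is not given. Nothing is therefore read from those values. With only peaks of −log10 q of at least 5, 4 regions of KCNH1 met the rule. In KCNMA1 the groups overlapped, at 8.31%, 10.8% and 8.83% against 11.4%, 9.38% and 11.1%. TACC2, which encodes a centrosomal protein, had 5 knockdown-only regions among 44, with coverage of 6.46%, 6.64% and 5.87% in the controls and 10.3%, 8.52% and 10.7% after knockdown. Without the members TACC2 had 9.31%, 7.64% and 9.49% after knockdown. KCNH1 and TACC2 were the 2 of the 10 genes with most members in which coverage was higher in every knockdown library, as it was in 3.05% of all 12958 protein-coding genes with a region and in 1.86% of the 1507 with at least 20. The 10 genes were chosen for their knockdown-only peaks, so nothing is read from this.

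The other genes of these 10 were LRMDA (8 of 154), RYR2 (7 of 132), TENM3 (6 of 241), EYA1 (5 of 54), ANKRD44 (5 of 90) and MYT1L (5 of 124). RYR2 is an intracellular calcium release channel, TENM3 a teneurin of synapse formation, EYA1 a developmental transcription coactivator and MYT1L a neuronal transcription factor. In RYR2, peaks covered 4.64%, 9.04% and 6.22% in control 1, 2 and 3 and 9.77%, 7.42% and 8.41% in knockdown 1, 2 and 3. TENM3 had 5.59%, 10.4% and 7.03% against 10.8%, 7.74% and 8.47%. In each of the 10 genes control 2 was the highest control library and knockdown 2 the lowest knockdown library, and in 8 of the 10 control 2 was above knockdown 2. Peaks were more numerous in every knockdown library in 6 of the 10, and in 1.57% of all genes with a region and 3.12% of those with at least 20, which the choice of the 10 genes by such peaks favours. Without control 2, the number of regions that met the rule was 18 in RYR2 and 17 in TENM3. In TENM3 it was 11 without knockdown 2 and 10 without knockdown 3. With only peaks of −log10 q of at least 5 it was 4 in LRMDA. Where no control peak was allowed within 1 kb, it was 3 in RYR2, 2 in TENM3, 4 in KCNMA1 and 5 in LRMDA. Control-only regions numbered 2 in KCNMA1, 1 each in LRMDA and RYR2 and none in the other 7.

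**Figure D2:**
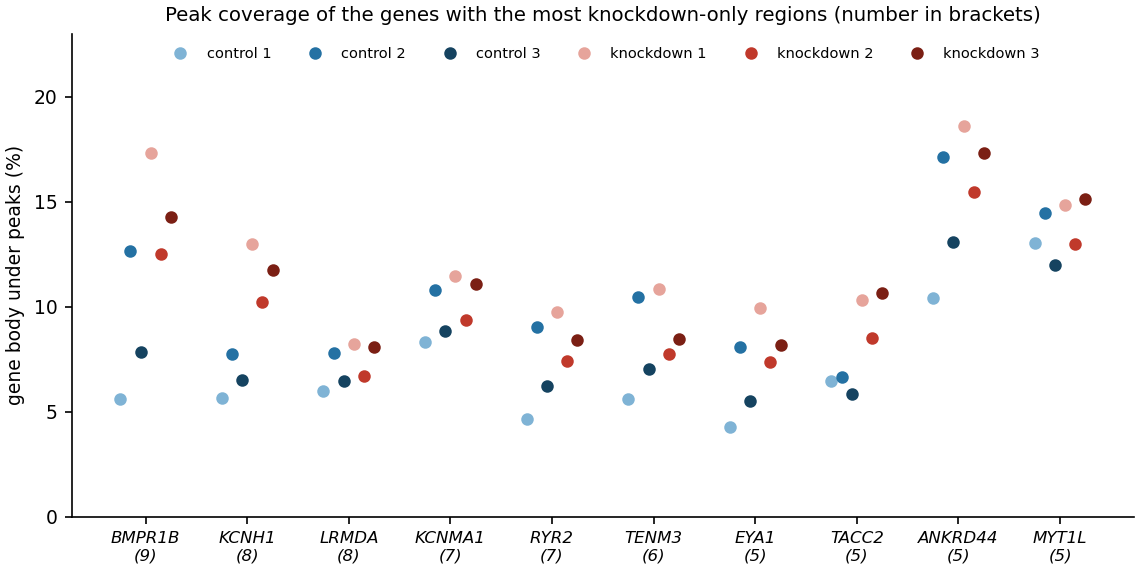
Percent of the gene body under peaks (y axis) in each of the 6 libraries, for the 10 protein-coding genes with most knockdown-only regions (x axis, number of such regions in brackets); each dot is 1 library, blue for control and red for knockdown. The groups do not overlap in KCNH1 and TACC2, and control 2 is the highest control library in every gene.

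Ranked by share instead, among the 1507 genes with at least 20 merged regions, ZFPM2 (4 of 28) and PACS2 (3 of 21) had 14.3% knockdown-only, followed by TACC2 with 11.4% and GLCCI1 (4 of 36) with 11.1%. In 1011 of these genes there was none. ZFPM2 encodes a cofactor of GATA factors, and peaks covered 1.10%, 2.25% and 1.70% of it in the controls and 3.37%, 2.47% and 2.73% after knockdown. With its 4 members taken out the knockdown values were 3.04%, 2.12% and 2.41%, and control 2 then lay among them. PACS2, which also held 2 control-only regions, overlapped throughout, at 9.36%, 7.74% and 6.60% against 8.87%, 7.17% and 8.54%. GLCCI1 was 3.798%, 14.04% and 4.48% covered in control 1, 2 and 3 and 19.4%, 12.8% and 16.7% in knockdown 1, 2 and 3, so control 2 resembled the knockdown libraries there. KCNH7 (2 of 20), a relative of KCNH1, was almost bare of peaks, at 0.200% to 1.52% in the controls and 0.732% to 1.19% after knockdown.

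Other genes were read through 25 lists of pathways and cell types, written with earlier results of these data known. For comparison, 1241 of the 121379 region and gene pairs over all protein-coding genes were knockdown-only (1.02%). None of the lists was tested. In the list of BMP receptors, SMADs and ligands, 3 of 30 genes with a region held knockdown-only regions (BMPR1B, SMOC1 and BMP7), 15 of 442 regions (3.39%), and BMPR1B made up 9 of the 15. BMP7, a BMP ligand, had 3 knockdown-only regions among 16, with peaks over 12.7%, 10.5% and 10.1% of the gene in the controls and 16.3%, 15.3% and 16.2% after knockdown. SMOC1, a secreted BMP antagonist, had 3 among 7, with 1.25%, 0.936% and 1.41% against 2.91%, 3.11% and 3.16%. Without the members, the knockdown values were 14.5%, 13.99% and 15.0% in BMP7 and 1.45%, 1.86% and 1.87% in SMOC1, so most of the gap in SMOC1 came from the regions the rule chose. Every knockdown library was still above every control library in both, in SMOC1 only by 1.45% against 1.41% at the closest. Counted with members, coverage was higher in every knockdown library in 3.05% of all 12958 protein-coding genes with a region. Both genes were named for their members, so nothing is read from this.

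Genes of the noradrenergic lineage, the identity of SH-SY5Y, held 10 knockdown-only regions among 389 (2.57%), in 5 of the 19 genes with a region. Among them were ALK with 4, CHGA and DDC with 2 each, and SATB1 with 1. In CHGA, which encodes chromogranin A of the catecholamine storage granules, peaks covered 17.3%, 16.6% and 13.2% of the gene in control 1, 2 and 3, and 51.0%, 42.1% and 48.0% in knockdown 1, 2 and 3. With its 2 members taken out, the knockdown values were 33.1%, 26.6% and 29.5%, so more than 50% of the gap was set by the regions the rule chose. Every knockdown library was still above every control library. CHGA was named for its members and the like share over all genes is not given, so nothing is read from this. CHGA held 6 merged regions, of which 2 were knockdown-only, and the longer one lay at chr14:92927116-92928867 with folds of 4.93, 4.38 and 3.91. ALK, a receptor kinase and neuroblastoma oncogene, overlapped between the groups, at 16.4%, 19.3% and 17.0% against 20.7%, 18.3% and 21.3%.

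In the list for catecholamine synthesis, transport and breakdown, 2 of 14 genes held a member, DDC and GCH1, the enzyme that starts synthesis of the tetrahydrobiopterin cofactor. GCH1 was covered at 16.6%, 22.3% and 19.2% in the controls and 26.8%, 21.1% and 25.9% after knockdown, and the groups overlapped. Among granin and secretory granule genes, CHGA, PTPRN2 and CADPS held members, 3 of 16. PTPRN2 had 2 knockdown-only and 9 control-only regions among 159, and its coverage was 11.3%, 10.1% and 9.51% in the controls and 8.72%, 7.94% and 8.26% after knockdown. PTPRN2 thus had less of its length under peaks in every knockdown library, despite its 2 members. The share of all genes lower in every knockdown library is not given, so nothing is read from this.

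Of the ion channel and receptor lists, potassium channels had 21 knockdown-only regions among 997 (2.11%) in 7 of 66 genes, and KCNH1 and KCNMA1 held 15 of the 21. The others were KCNH7, KCNIP1, KCNH8, KCNJ12 and KCNAB1. Voltage-gated calcium channel subunits had 9 of 574 (1.57%) in 6 of 17 genes, the most in CACNA2D1, an accessory subunit, with 3 of 133. Glutamate receptors had 12 of 683 (1.76%) in 5 of 23 genes (GRM8, GRIK4, GRID1, GRIA4 and GRM4). GRM8, a metabotropic receptor, had 4 of 85, with coverage of 1.79%, 4.59% and 2.55% in the controls and 5.47%, 3.91% and 4.47% after knockdown, so control 2 again lay within the knockdown values. Serotonin receptors had none among 41 regions in 9 genes.

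Long synaptic adhesion and scaffold genes held a member in 17 of 32 cases, but only 31 of their 2849 regions were knockdown-only (1.09%), close to the 1.02% of all protein-coding genes. Their median length was 959185 bp. TENM3 led them, and MAGI2 had 4. Axon guidance genes gave a like share, 23 of 1989 (1.16%), in 13 of 69 genes. The repulsive guidance receptor ROBO2 had 5 of 191, UNC5C 4 of 105 and EFNA5 3 of 97. UNC5C is the neighbour of BMPR1B on chromosome 4, and its coverage was 10.3%, 21.6% and 12.3% in control 1, 2 and 3 and 25.4%, 18.95% and 19.2% in knockdown 1, 2 and 3.

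No member lay in the genes of 7 lists. These were reported targets of TDP-43 cryptic splicing (26 genes with 402 regions), R-loop resolution and homologous repair (22 genes with 131 regions), transposable element silencing (22 with 160), mesenchymal neuroblastoma state (17 with 96), glial and Schwann markers (11 with 68), serotonin receptors and HOX clusters (8 with 24). Several of these lists hold few regions, beside a share of 1.02% over all protein-coding genes. Of the enzymes that write and oxidise methylcytosine, TET1 held 1 member among 15 regions, and peaks covered 4.71%, 5.93% and 5.34% of it in the controls and 5.91%, 5.57% and 6.03% after knockdown, so the groups overlapped. Splicing factor genes had 6 of 713 (0.842%), in CELF4, HNRNPAB, RBFOX2, SRSF12 and SRSF10. Genes of amyotrophic lateral sclerosis and frontotemporal dementia had 4 of 252 (1.59%), in FIG4, EWSR1, TAF15 and SPG11. Wnt genes had 4 of 250 (1.60%), in LRP6, WNT7A, TCF7L1 and WNT9B. Ribosomal protein genes had 2 of 81 (2.47%, RPL36A and RPS3). Imprinted genes had 1 of 184 (0.543%, IGF2), nonhomologous end joining 1 of 81 (1.23%, XRCC4) and the alcohol dehydrogenase cluster 1 of 28 (3.57%, DAPP1). Lymphoid and myeloid markers had 3 of 73 (4.11%), in SCIMP, PAX5 and RAG2, 3 of the 10 genes with a region. On few regions, that share was above the 2.57% of the noradrenergic list.

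The members were spread over all 23 chromosomes much as the merged regions were. The share of merged regions that was knockdown-only ran from 0.702% on chromosome 21 (15 of 2136) to 1.31% on chromosome 20 (64 of 4882). The exact 95% binomial interval of each chromosome's share, which covers counting error only, held the 1.06% of all regions in 23 of 23 cases. Chromosome 19, rich in genes and CpG islands, had 22 of 3004 (0.732%). Over all chromosomes there were 2126 knockdown-only and 3951 control-only regions, and the control-only ones were the more numerous on every chromosome. On chromosome 19 there were 124 control-only regions, so that 15.1% of its group-specific regions were knockdown-only. That was the lowest share. The highest was 45.2% on chromosome 4, with 114 knockdown-only and 138 control-only regions. The shares by chromosome were not tested.

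Knockdown-only regions were seldom near gene starts. Of the 2014 outside chromosome 8, 18 lay within 1 kb of the start of a protein-coding gene (0.894%, exact 95% interval 0.531 to 1.41%). For control-only regions it was 178 of 3746 (4.75%, 4.09 to 5.48%), for regions in all 6 lists 2109 of 68037 (3.10%) and for all merged regions 2.89%. Among regions 300 to 800 bp wide the shares were 0.982%, 4.83%, 3.89% and 3.03%, in the same order of classes. The median distance to a start was 83498.5 bp for knockdown-only regions, 43847 bp for control-only regions and 65349 bp for regions in all 6 lists. The control-only share was the higher in 12 of 12 settings of the processing, and the difference was not tested. The intervals cover counting error only, regions of 1 genome and library are not replicates, and the start table held 82.1% of the protein-coding genes outside chromosome 8.

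**Figure D3:**
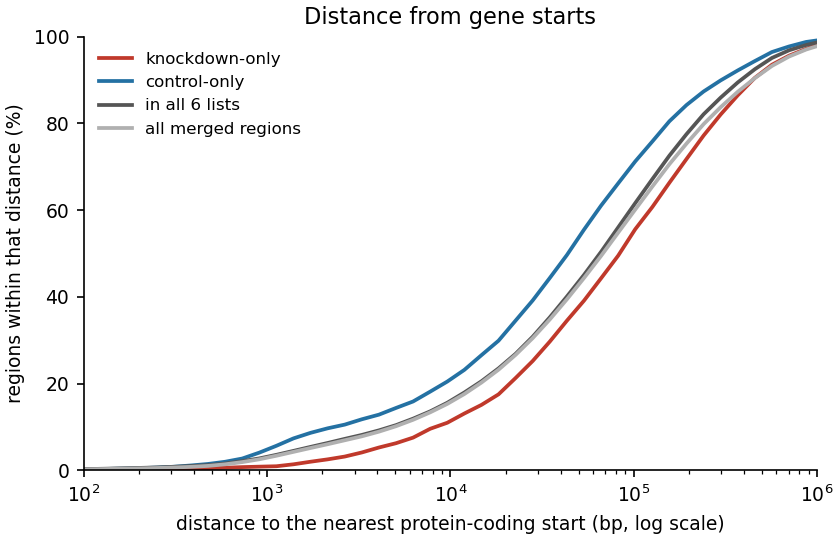
Percent of regions (y axis) within a given distance of the nearest protein-coding start (x axis, bp, log scale), for knockdown-only, control-only, all-list and all merged regions outside chromosome 8. The knockdown-only line runs lowest and the control-only line highest from 1 kb to 100 kb; at 1 kb they stand at 0.894% and 4.75%.

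Within genes of at least 5 kb, the members were spread evenly from start to end. Cut into 5 equal parts from the start, genes held 18.9%, 20.5%, 19.4%, 20.2% and 20.8% of their knockdown-only regions in the successive parts. Control-only regions had a higher share in the first of these, with 23.8%, 18.2%, 18.4%, 19.2% and 20.4%. Regions in all 6 lists had 21.1% there. These shares were not tested.

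Many knockdown-only regions lay close to regions that every library shared. The nearest region in all 6 lists was a median of 5258.5 bp away (quartiles 1571 and 16631 bp), and 1375 of 2126 (64.7%) had one within 10 kb. For control-only regions the median was 8451 bp and 54.0% were within 10 kb, for regions in all 6 lists themselves 4270 bp and 69.5%, and for all merged regions 6737 bp and 59.1%. Within 1 kb lay 348 of the members (16.4%). At the other end, 7.67% were over 50 kb from any such region. The farthest was a region near LOC124903401 on chromosome 14 (chr14:83493270-83493981), 2065030 bp away, with folds of 5.50, 5.28 and 5.24. It was followed by regions in LOC124901968 on chromosome 8 and near C4orf33, ST8SIA4 and NR4A2, the last of them 708688 bp away.

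The members often had another member in their neighbourhood. Another knockdown-only region stood within 10 kb of 171 members (8.04%) and within 100 kb of 31.9%. A knockdown-only region stood within 10 kb of 3.81% of regions in all 6 lists and within 100 kb of 23.3%, and for control-only regions the values were 1.44% and 15.0%. Control-only regions were likewise near each other, 8.20% within 10 kb and 45.3% within 100 kb, and they are more numerous. These shares rest on the same lists that chose the regions and were not tested. Without control 2, 58.9% of the then 6810 regions had another within 100 kb, and without knockdown 2 it was 48.5%.

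**Figure D4:**
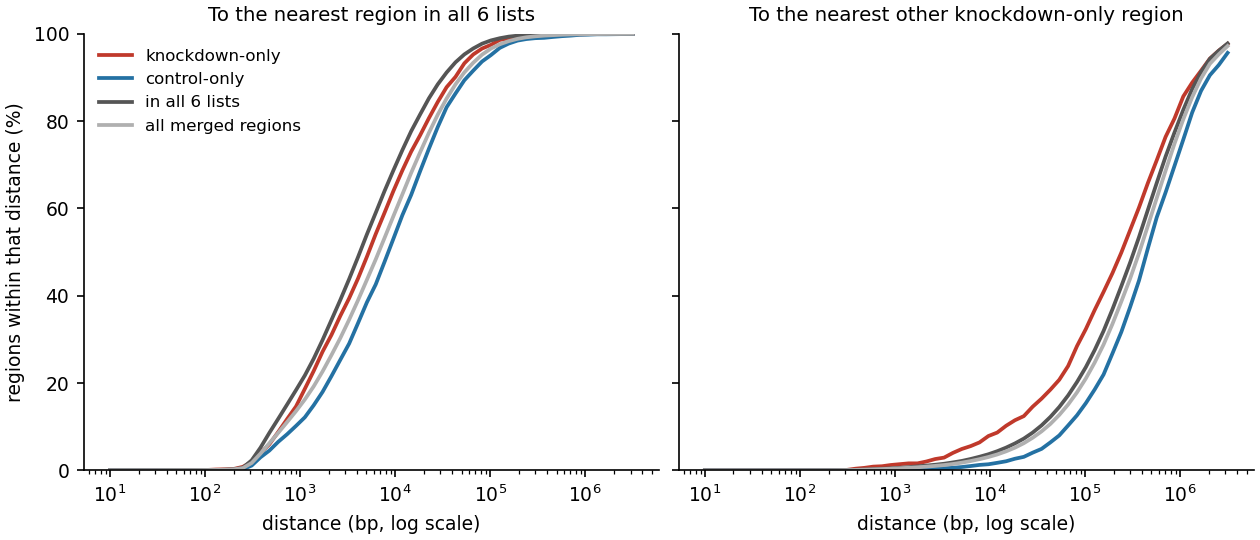
Percent of regions (y axis) within a given distance (x axis, bp, log scale) of the nearest region in all 6 lists (left) and of the nearest other knockdown-only region (right), by class of region. From 1 kb to 100 kb the knockdown-only line runs between those of regions in all 6 lists and all merged regions on the left and highest on the right, with 31.9% of members within 100 kb of another.

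Chaining neighbours at most 100 kb apart gave 1448 members that stood alone and 287 clusters, of which 222 held 2 members and 65 held 3 or more. The clusters held 678 members (31.9%). The highest number was 6 members, in 5 clusters. The shortest of these lay in BMPR1B (chr4:94935946-95015124), where 6 of 15 merged regions were knockdown-only and 2 were in all 6 lists. Peaks covered 1.74%, 4.02% and 1.97% of that stretch in control 1, 2 and 3, and 11.03%, 8.21% and 8.27% in knockdown 1, 2 and 3. Every knockdown library was thus above every control library in the BMPR1B cluster, which the rule itself favours.

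The cluster from HHAT into KCNH1 (chr1:210672767-210802599) held 6 of 34 regions, with 9.35%, 10.8% and 9.72% of bases under control peaks and 18.98%, 15.4% and 17.3% under knockdown peaks. In RYR2 (chr1:237098907-237324646) it was 6 of 54 regions and 8.52%, 13.2% and 9.78% against 16.2%, 12.8% and 15.4%, where control 2 exceeded knockdown 2. KCNMA1 (chr10:76869825-77119555) and ANKRD44 (chr2:197077131-197339734) had 6 of 68 and 6 of 79. Clusters of 5 lay in TACC2 on chromosome 10 (5 of 24), in the lncRNA gene LOC101929129 on chromosome 15 (5 of 20) and over BMP7 and LOC105372685 on chromosome 20 (5 of 22).

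The surroundings of the members, outside the group-specific regions themselves, were also covered unequally. In the band from 1 to 5 kb from a member's edge, peaks covered 7.81%, 10.1% and 8.01% of bases in control 1, 2 and 3 and 10.5%, 8.49% and 9.61% in knockdown 1, 2 and 3, and the groups overlapped. Divided by the coverage around regions in all 6 lists in the same library, the values were 0.810, 0.863 and 0.824 in the controls (mean 0.833 ± 0.0275, SD, n = 3) and 0.950, 0.926 and 0.927 after knockdown (mean 0.934 ± 0.0135, SD, n = 3). After that division the groups were apart in each of the 5 bands out to 100 kb, where the last band, from 50 to 100 kb, had 0.838 to 0.886 in the controls and 0.915 to 0.930 after knockdown. Around control-only regions the order was the opposite, with 0.649 to 0.705 in the controls and 0.566 to 0.577 after knockdown from 1 to 5 kb. The regions were chosen from the same lists, and this was not tested.

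**Figure D5:**
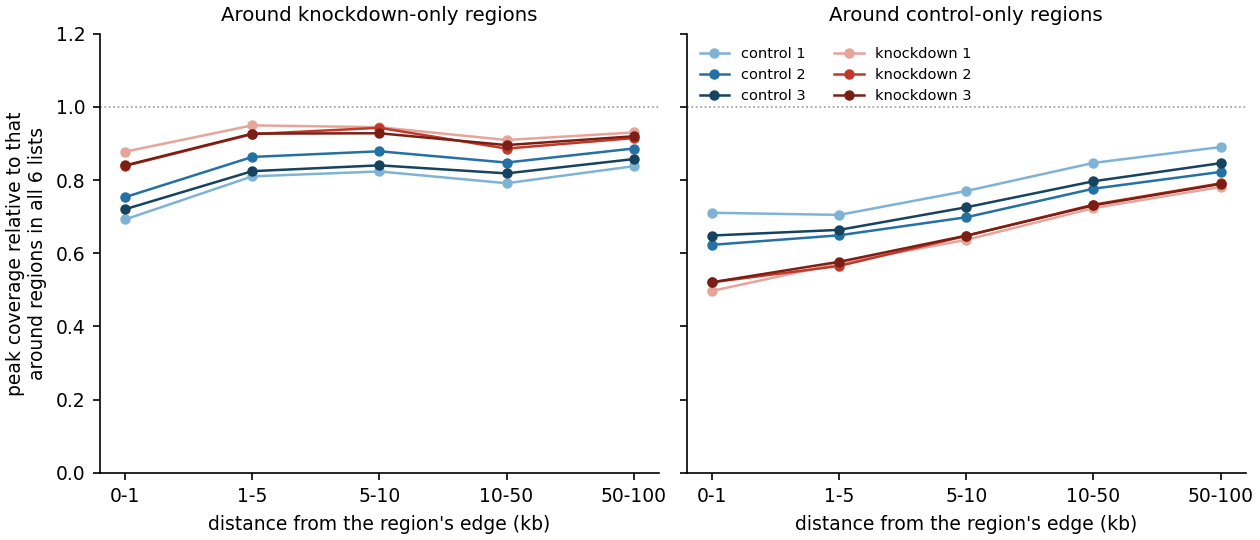
Peak coverage around knockdown-only (left) and control-only regions (right) divided by that around regions in all 6 lists in the same library (y axis), in bands of distance from the region's edge (x axis, kb); each line is 1 library and group-specific regions are left out. The knockdown lines run above the control lines on the left and below them on the right in all 5 bands.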

How the data were processed

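5hmC pull-down (hMe-Seal) peak lists of 3 control and 3 shTDP-43 libraries of SH-SY5Y were used, grouped by title. The submitters' processing notes name Bowtie2 2.4.4, SAMtools, MACS2 2.2.6 and hg38, with no role or order. The authors deposited 1 peak list per library with a fold over background, a −log10 p-value and −log10 q-value, a score and a summit per peak. All values are the authors' and were used only within a list. The score was not used, and neither was the input library. Read totals are unknown, so the depth behind a peak is unknown.

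Peaks on chromosomes 1 to 22 and X that overlapped or touched were merged, and each merged region was assigned by the lists with a peak in it. Genes came from a RefSeq table of GRCh38.p14, matched on coordinates, and promoters and miRNA hairpins from RefSeq tables of that assembly. Of 19970 protein-coding genes, 15811 had a promoter entry (79.2%). Chromosome 8 starts were not analysed here (112 members, 9498 merged regions). Distances between regions run edge to edge. Distances to protein-coding starts run from the middle of the region to the start, so the width of a region does not enter them. No test was made, since the rule uses the contrast itself. Named regions are the 10 longest, the 10 of highest smallest fold, the 5 farthest from shared regions and those over promoter windows. Named genes are the 10 protein-coding and 5 lncRNA genes with most members, those of the 5 largest clusters, and list genes with a member. Some named items are not reported here. Further genes by share, and clusters of 5, were chosen after their values were seen. The members and lists were chosen with earlier results of these data known. Computation used pandas 2.3.3 under Python 3.11.15, with matplotlib 3.10.9, scipy 1.17.1 and numpy 2.4.6. Tested on simulated data, the merging rule recovered 217 of 217 planted regions among 3000. The planted regions stood well apart, with a peak in every knockdown list and in no control list. Their recovery therefore checks the code only and says nothing about missed peaks in these data.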

Additional observations from a re-analysis of the deposited data

How the results depend on the processing

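No paired analysis was possible because the results come from no test, and no label says that equal replicate numbers tie libraries of the groups together. The number of knockdown-only regions was 1742 with only peaks of −log10 q of at least 5, 2747 with equal numbers of peaks per list and 1535 with no control peak within 1 kb, and 2645 to 6810 with 1 library left out, the highest without control 2. Of the 2126 regions, 55.8% were found again at −log10 q of at least 5 and 69.0% with equal numbers of peaks. The share in protein-coding genes stayed between 56.1% and 58.4%, and the share within 1 kb of a protein-coding start between 0.603% and 1.23%. The share in clusters was 27.7% at −log10 q of at least 5, 36.1% with equal numbers of peaks, 28.8% with at least 50% of the region covered by each library, 23.6% with no control peak within 1 kb, 19.9% with clusters at 50 kb, 50.8% at 250 kb and 36.1% to 58.9% with 1 library left out. At −log10 q of at least 5, with equal numbers of peaks and with no control peak within 1 kb, the share within 10 kb of a region in all 6 lists was 62.3%, 59.9% and 57.5%, and the median distance 5890.5, 6408 and 7500 bp. Where shared meant 2 libraries of each group they were 73.6% and 3590.5 bp, and with 1 library left out 57.7% to 69.2% and 4137 to 7090.5 bp. The median of the smallest fold was 3.98, and it was 4.59 at −log10 q of at least 5, 4.52 with equal numbers of peaks and 3.87 to 4.59 with 1 library left out. The counts per gene and the shares near starts were recomputed under settings chosen after seeing the data. Depth could not be weighed, since the files give no read totals.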
